A study of Mus musculus with 9 samples.

Results

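G2 and mitosis genes were followed in the large intestine of mice in which the RNA and DNA helicase gene Dhx9 was knocked down. The genes were a list of 43 symbols, and a row of the expression table was taken as a member where its Entrez Gene number mapped to a listed symbol. Of the 43, 42 had such a row, out of 24011 named genes in all, and all 42 passed the filter on low levels and entered the tests. Total RNA of the large intestine was measured on Affymetrix Mouse Gene 2.0 ST arrays, 1 array per sample. The mice had a C57BL/6 background and carried rtTA, the activator that switches on the hairpin when doxycycline is given. The hairpin was DHX9-1271 (3 arrays), DHX9-837 (3 arrays) or, as control, FLuc.1309, which is directed against firefly luciferase, a gene mice do not have (3 arrays). All 3 groups had the same treatment, doxycycline at 1 mg/ml with 5% sucrose in drinking water for 14 days, begun at 4 weeks of age, so the drug and rtTA were common to knockdown and control mice. The hairpins act wherever rtTA is expressed, and the labels do not give its promoter or the cells it covers. Nor do they state whether each array stands for a different mouse. All p-values here therefore rest on the spread among arrays of the same group, pooled over the 3 groups, which may be technical. The small number of 3 arrays a group limits their precision.

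Cells that divide leave S phase with a doubled genome and pass through G2 into mitosis, when cyclin-dependent kinase 1 and its A- and B-type cyclins, Polo-like kinase and the Aurora kinases condense the chromosomes, build the spindle and attach chromosomes to it through kinetochores. The spindle checkpoint holds cells in metaphase until every kinetochore is attached, and the anaphase-promoting complex with Cdc20 then destroys cyclin B and securin so that chromosomes part and the cell divides by cytokinesis. In the colon, dividing epithelial cells lie in the lower crypt, and lymphoid follicles of the gut wall also hold dividing cells. Most of these genes are transcribed late in the cell cycle, and many of their promoters are known to carry a CHR element, the letters TTTGAA, which is bound by the MuvB complex with B-MYB and FOXM1 in G2, together with CCAAT boxes bound by NF-Y.

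Promoter windows were available for 34 of the 42 genes, from 250 bases before to 50 after the transcription start (RefSeq, build GRCm38.p6). On either strand, the letters TTTGAA were present in 25 of the 34 (73.5%), against 14.9% of the promoters of 12856 tested genes that had a window. CCAAT was present in 26 (76.5%, against 41.6%), and 19 held it at 2 or more places (55.9%, against 15.2%). The variant TTTAAA, which reads the same on both strands, was found in 8 (23.5%, against 11.2%), and TTCCCGC, a core of E2F sites, in 0 (against 8.50%). Each motif was counted on its own, also where matches of different motifs overlapped. A match is a description of the letters, not a measured binding site. In 23 of the 25 promoters at least 1 TTTGAA was centred within 50 bases of the start. The stretches from 120 bases before to 30 after the start are shown for 7 genes, of which the first 5 rose in knockdown intestine and the last, Top2a and Cks2, were not called, with TTTGAA and CCAAT on either strand (TTCAAA and ATTGG where reversed) in capitals.
Kif23 (chr9:61946770-61946919, minus strand): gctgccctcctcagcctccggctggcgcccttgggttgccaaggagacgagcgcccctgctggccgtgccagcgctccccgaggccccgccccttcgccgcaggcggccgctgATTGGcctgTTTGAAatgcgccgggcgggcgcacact
Ccnb2 (chr9:70421525-70421674, minus strand): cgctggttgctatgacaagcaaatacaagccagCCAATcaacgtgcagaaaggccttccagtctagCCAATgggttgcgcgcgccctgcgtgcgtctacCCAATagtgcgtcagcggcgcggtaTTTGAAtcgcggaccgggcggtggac
Ube2c (chr2:164769809-164769958, plus strand): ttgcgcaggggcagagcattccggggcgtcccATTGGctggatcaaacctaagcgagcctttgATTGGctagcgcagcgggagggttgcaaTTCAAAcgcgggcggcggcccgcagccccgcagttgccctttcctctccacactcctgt
Cdc20 (chr4:118437314-118437463, minus strand): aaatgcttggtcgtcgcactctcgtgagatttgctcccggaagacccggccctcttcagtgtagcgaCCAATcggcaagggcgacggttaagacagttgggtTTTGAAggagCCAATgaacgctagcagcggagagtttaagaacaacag
Cdk1 (chr10:69352883-69353032, minus strand): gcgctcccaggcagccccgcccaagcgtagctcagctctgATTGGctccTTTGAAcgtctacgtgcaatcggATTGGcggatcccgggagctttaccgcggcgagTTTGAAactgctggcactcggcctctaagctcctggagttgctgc
Top2a (chr11:99024160-99024309, minus strand): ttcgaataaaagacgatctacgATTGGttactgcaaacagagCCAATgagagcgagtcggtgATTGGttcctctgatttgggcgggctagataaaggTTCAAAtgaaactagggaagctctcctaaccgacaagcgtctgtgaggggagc
Cks2 (chr13:51645112-51645261, plus strand): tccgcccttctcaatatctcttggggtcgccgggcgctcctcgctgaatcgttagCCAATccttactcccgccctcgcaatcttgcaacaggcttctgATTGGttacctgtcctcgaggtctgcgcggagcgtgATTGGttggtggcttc
Top2a has both kinds of letters in its stretch, and Cks2 has CCAAT at 3 places and no TTTGAA. Of the 25 genes with TTTGAA 21 rose in the comparison of both hairpins with control described below (median log2 fold 0.42). Of the 9 with a window but without TTTGAA 6 rose (median 0.38), and of the 8 without a window 7 rose (median 0.35). Over all genes tested, 8.13% were called upward in that comparison. Whether the response differs with the motif was not tested.

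**Figure D1:**
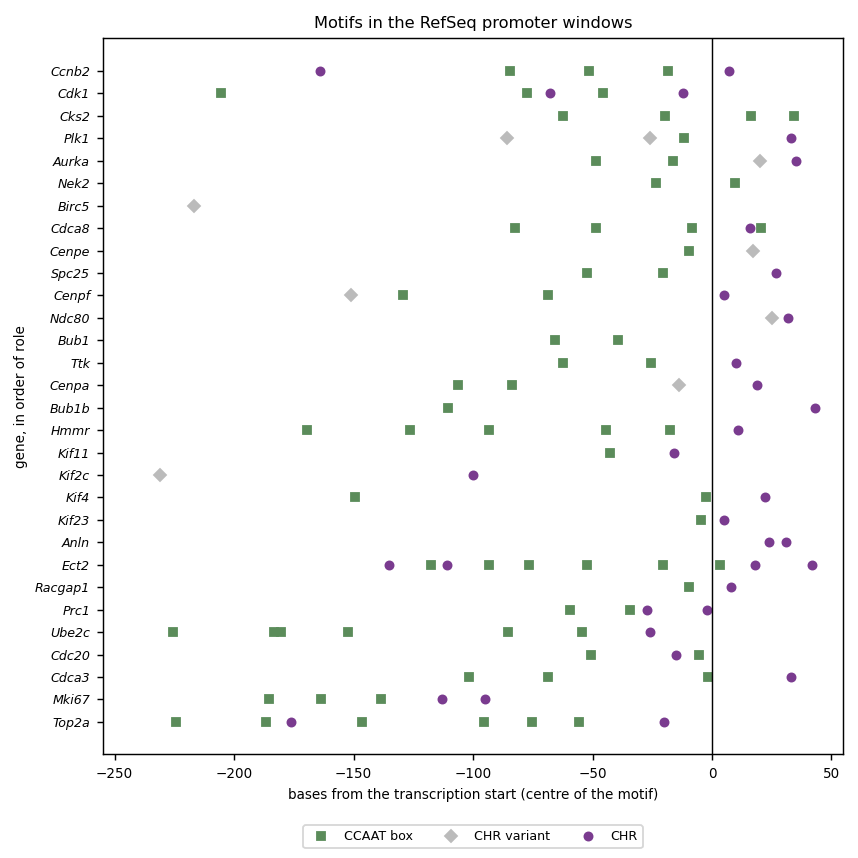
Position of CHR letters (TTTGAA), their variant (TTTAAA) and CCAAT in the promoter windows of genes with at least 1 of them, in bases from the transcription start (x axis), with a row per gene ordered by role (y axis). Ect2 and Prc1 have 2 annotated starts each, whose windows overlap, and both are drawn in 1 row. Most TTTGAA matches lie close to the start, with CCAAT upstream of them.

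Dhx9 was lower in all 6 knockdown arrays than in all 3 control arrays. Its log2 level was 8.27, 8.22 and 8.18 in DHX9-1271, 8.19, 8.22 and 8.20 in DHX9-837 and 9.21, 9.18 and 9.32 in control (replicates 1, 2 and 3 in this and all later sentences of this kind), a log2 fold of -1.01 with DHX9-1271 (SE 0.051, adjusted p = 4.91e-05) and -1.03 with DHX9-837 (SE 0.051, adjusted p = 2.05e-05). Array medians lay between 6.25 and 6.29, and arrays of the same group correlated across genes at 0.979 to 0.995. General epithelium markers averaged 10.66 to 10.74 on the 6 knockdown arrays and 10.62 to 10.65 on the control arrays, and absorptive colonocyte markers averaged 11.34 to 11.53 and 11.59 to 11.60, so the labelled tissue's defining genes were present throughout. For the genes of interest, 1 control array stood apart. Control replicate 1 had the lowest level of all 9 arrays for 38 of the 42 genes, and within the control group replicate 2 was the highest for 36.

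With both hairpins against control, 34 of the 42 genes rose, 0 fell and 8 were not called at an adjusted p under 0.05. Over all 16808 genes tested, 8.13% were called upward and 5.33% downward in this comparison. At least 1.5-fold, 5 of the 42 rose (0.869% of all genes). All 42 fold changes were above 0, with a median of 0.39 on the log2 scale (1.31-fold) and quartiles of 0.31 and 0.48, against a median of 0.0011 over all genes tested. All 6 knockdown arrays lay above all 3 control arrays for 37 of the 42, as they did for 10.7% of all genes. The mean of the 42 genes per array was 7.73, 7.74 and 7.74 in DHX9-1271, 7.71, 7.71 and 7.80 in DHX9-837 and 7.16, 7.49 and 7.37 in control (log2 level). These arrays hold RNA of whole tissue, so a larger share of dividing cells and more of these transcripts per dividing cell cannot be told apart.

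The knockdown groups were tight for these genes and the control group was not. The median SD over the 42 genes was 0.053 in DHX9-1271, 0.063 in DHX9-837 and 0.19 in control (log2 level, n = 3 arrays each). The model pools the groups into 1 spread per gene, so its standard errors, intervals and calls assume equal spreads. Where control is the widest group, standard errors may be too small against control and too large between the hairpins. The mean of the 42 genes spanned 0.010 between DHX9-1271 arrays, 0.095 between DHX9-837 arrays and 0.32 between control arrays. Within DHX9-837, replicate 3 was the highest array for 34 of the 42 genes. Without control replicate 1 the median log2 fold was 0.30 and 25 genes rose, and without control replicate 2 it was 0.48 and 36 rose.

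**Figure D2:**
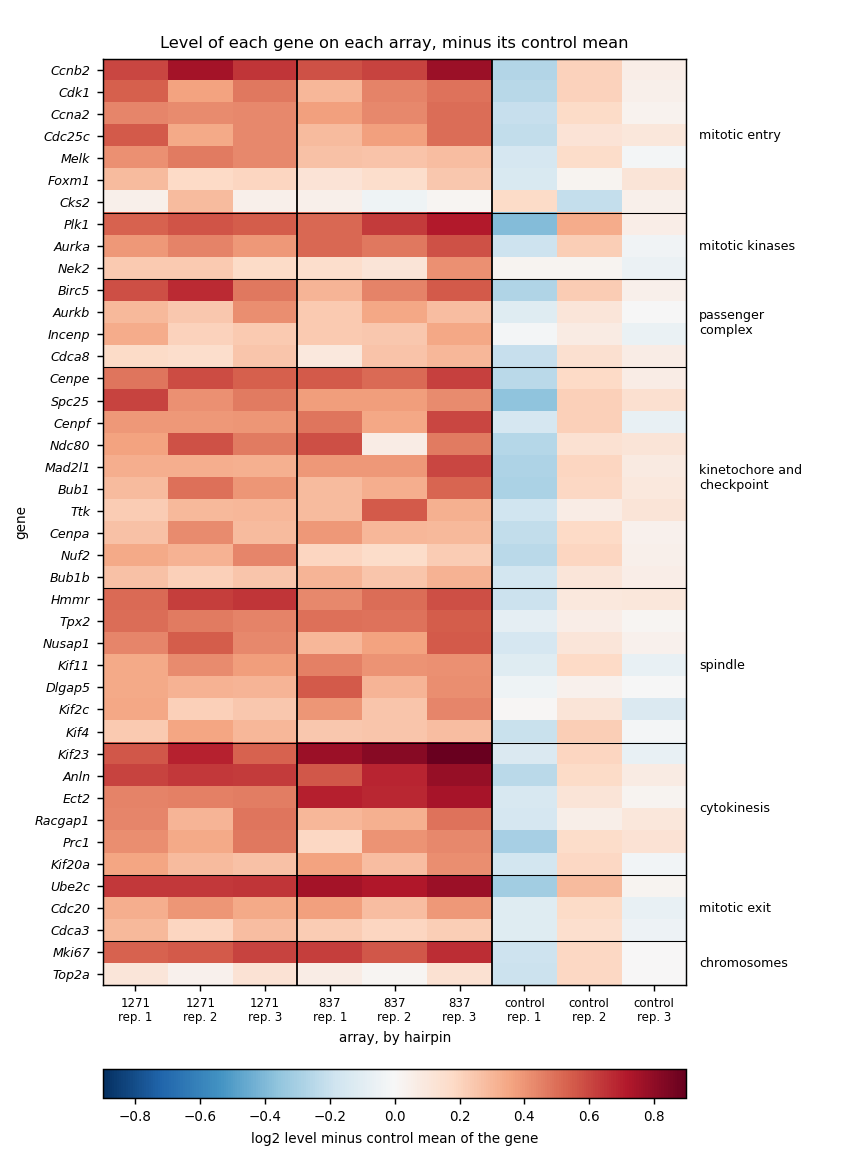
Log2 level of each of the 42 genes (rows, grouped by role) on each of the 9 arrays (columns, by hairpin and replicate), minus the mean of that gene over the control arrays. Knockdown columns are higher for nearly every row, control replicate 1 is the lowest column, and the rows of Top2a and Cks2 stay near 0.

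Genes that drive entry into mitosis were higher with knockdown, and 5 of the 7 grouped here rose. Counts by role, here and below, are for both hairpins against control, where 8.13% of all genes tested were called upward. All knockdown arrays lay above all control arrays for 10.7% of all genes. Ccnb2, which encodes a B-type cyclin, had log2 levels of 8.76, 8.91 and 8.80 in DHX9-1271, 8.73, 8.77 and 8.93 in DHX9-837 and 7.89, 8.36 and 8.21 in control. Its log2 fold of 0.66 was the highest of the 42 with DHX9-1271 (adjusted p = 0.017), and with both hairpins it was 0.66 (SE 0.097, adjusted p = 0.00361). Cdk1, the kinase that B-type cyclins activate, read 7.71, 7.53 and 7.65 in DHX9-1271, 7.48, 7.62 and 7.66 in DHX9-837 and 6.92, 7.38 and 7.22 in control (log2 fold 0.44, SE 0.096, adjusted p = 0.0189). Ccna2, whose cyclin A2 acts in S phase and G2, read 9.32, 9.30 and 9.31 in DHX9-1271, 9.25, 9.31 and 9.38 in DHX9-837 and 8.67, 9.05 and 8.91 in control (log2 fold 0.43, SE 0.075, adjusted p = 0.00725). For each of these genes the lowest knockdown array lay above the highest control array. Cdc25c, a phosphatase that removes the inhibitory phosphates of Cdk1, rose by 0.41 (adjusted p = 0.0172) and Melk, a kinase of proliferating cells, by 0.35 (adjusted p = 0.00824). Foxm1, which encodes a transcription factor of G2 genes, read 7.41, 7.31 and 7.32 in DHX9-1271, 7.25, 7.29 and 7.37 in DHX9-837 and 6.99, 7.15 and 7.24 in control. Its knockdown arrays all lay above its control arrays by a small margin, and it was not called (log2 fold 0.20, SE 0.061, adjusted p = 0.0686). Cks2, a small subunit that binds Cdk1, was the gene of smallest change, with 6.55, 6.79 and 6.55 in DHX9-1271, 6.55, 6.47 and 6.53 in DHX9-837 and 6.68, 6.30 and 6.55 in control (log2 fold 0.07, SE 0.088, adjusted p = 0.671). Its groups overlapped, and control replicate 1, the lowest array for most of the other genes, was the highest control array for Cks2. The level of Cks2 was identical on DHX9-1271 replicates 1 and 3, DHX9-837 replicate 1 and control replicate 3. Its row may therefore resolve differences between arrays poorly, which was not tested.

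Among the mitotic kinases, Plk1 and Aurka rose and Nek2 was not called. Plk1, the Polo-like kinase of centrosome maturation and mitotic entry, had log2 levels of 8.88, 8.92 and 8.90 in DHX9-1271, 8.86, 8.98 and 9.06 in DHX9-837 and 7.96, 8.68 and 8.41 in control. The control arrays of Plk1 spanned more than those of any other of the 42 genes (SD 0.017 in DHX9-1271 and 0.37 in control), and its log2 fold was 0.58 (SE 0.13, adjusted p = 0.0217). Aurka, which encodes the spindle-pole Aurora kinase, read 7.72, 7.78 and 7.72 in DHX9-1271, 7.85, 7.81 and 7.90 in DHX9-837 and 7.14, 7.55 and 7.30 in control (log2 fold 0.46, SE 0.08, adjusted p = 0.00694). For Plk1 and Aurka alike, control replicate 1 was the lowest array and every knockdown array lay above every control array. Nek2, a kinase of centrosome separation, had a log2 fold of 0.22 (adjusted p = 0.0584) although its arrays did not overlap between knockdown and control.

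The chromosomal passenger complex corrects faulty attachments of chromosomes and later marks the cleavage plane. Of its 4 genes 3 rose. Its kinase gene Aurkb read 8.25, 8.20 and 8.38 in DHX9-1271, 8.19, 8.31 and 8.24 in DHX9-837 and 7.85, 8.07 and 7.96 in control (log2 fold 0.30, SE 0.061, adjusted p = 0.0135). Birc5, which encodes survivin, the subunit that targets the complex to centromeres, read 6.72, 6.81 and 6.61 in DHX9-1271, 6.44, 6.59 and 6.69 in DHX9-837 and 5.87, 6.36 and 6.18 in control (log2 fold 0.51, SE 0.11, adjusted p = 0.0149). Knockdown and control arrays did not overlap for either gene. Incenp, the scaffold, rose by 0.27 (adjusted p = 0.0102). Cdca8, which encodes borealin, had a log2 fold of 0.21 (adjusted p = 0.13) and was not called, and DHX9-837 replicate 1 lay below 1 of its control arrays.

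**Figure D3:**
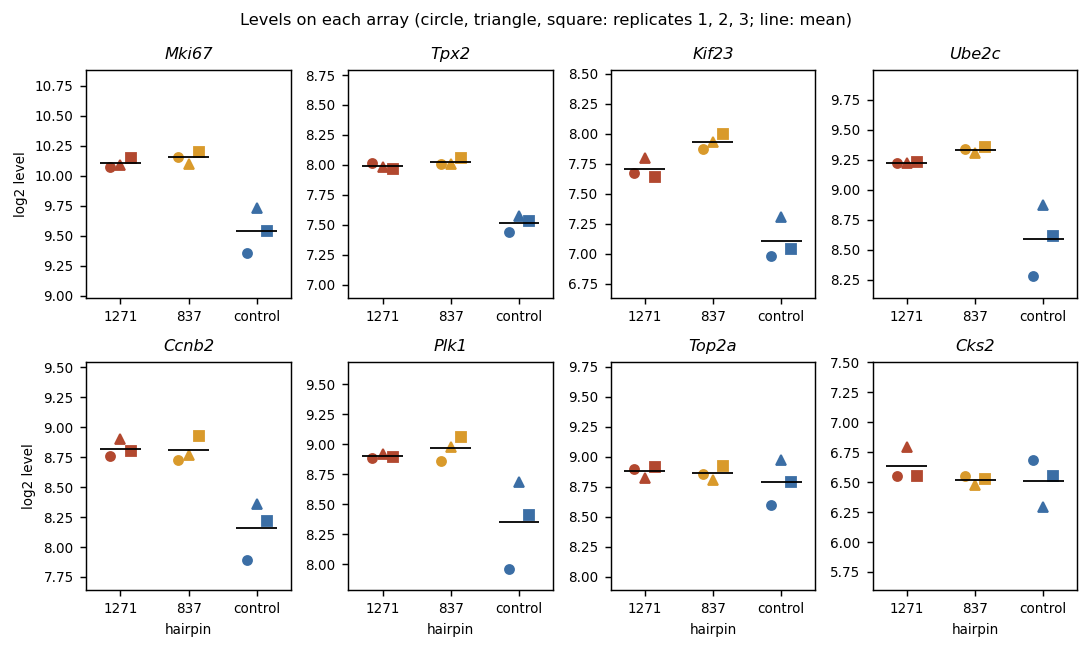
Log2 levels (y axis) of 8 genes on each array, by hairpin (x axis), with a line at each group mean and replicates 1, 2 and 3 as circle, triangle and square. Every panel spans the same range of log2 units. In Mki67, Tpx2, Kif23, Ube2c, Ccnb2 and Plk1 all knockdown arrays lie above all control arrays, and in Top2a and Cks2 the groups overlap.

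With both hairpins against control, 8 of 10 kinetochore and spindle checkpoint genes rose. Of these 10 genes, 1 was called with DHX9-1271 alone and 5 with DHX9-837 alone. Cenpe, a kinesin that carries chromosomes to the metaphase plate, had the highest log2 fold of them, with levels of 7.89, 7.99 and 7.94 in DHX9-1271, 7.95, 7.91 and 8.02 in DHX9-837 and 7.16, 7.58 and 7.47 in control (log2 fold 0.55, SE 0.084, adjusted p = 0.00435). Cenpa, the histone H3 variant that marks centromeres, read 7.14, 7.30 and 7.16 in DHX9-1271, 7.26, 7.17 and 7.16 in DHX9-837 and 6.65, 7.05 and 6.91 in control (log2 fold 0.33, SE 0.083, adjusted p = 0.0345). Bub1, a checkpoint kinase, read 6.48, 6.69 and 6.59 in DHX9-1271, 6.48, 6.52 and 6.72 in DHX9-837 and 5.91, 6.38 and 6.29 in control (log2 fold 0.38, SE 0.11, adjusted p = 0.0462). All 3 separated knockdown from control arrays. Mad2l1, the checkpoint protein gene that restrains Cdc20, read 8.14, 8.14 and 8.13 in DHX9-1271, 8.20, 8.20 and 8.41 in DHX9-837 and 7.53, 8.003 and 7.90 in control (log2 fold 0.39, SE 0.098, adjusted p = 0.0318). DHX9-837 replicate 3 was its highest array and no knockdown array reached the control range. Ndc80, which with Nuf2 and Spc25 forms the complex that grips microtubules, read 7.05, 7.26 and 7.16 in DHX9-1271, 7.27, 6.75 and 7.15 in DHX9-837 and 6.43, 6.82 and 6.80 in control. DHX9-837 replicate 2 fell within the control range for Ndc80, the SD in that group was 0.27, and the gene was not called (log2 fold 0.42, SE 0.13, adjusted p = 0.0609). Nuf2 was not called either (log2 fold 0.28, adjusted p = 0.064), while Spc25 rose by 0.45 (adjusted p = 0.0381). Cenpf rose by 0.43, the checkpoint kinase gene Ttk by 0.33 and Bub1b, which encodes BubR1, by 0.27 (adjusted p from 0.011 to 0.0292).

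Spindle genes rose in 6 of 7 cases. Tpx2, which nucleates microtubules around chromosomes and activates Aurora A, read 8.01, 7.98 and 7.96 in DHX9-1271, 8.01, 8.004 and 8.06 in DHX9-837 and 7.44, 7.57 and 7.54 in control. Its SD was 0.027 in DHX9-1271 and 0.07 in control, no knockdown array reached the control range, and it had the smallest adjusted p of the 42 genes (log2 fold 0.49, SE 0.043, adjusted p = 0.000388). Kif11, the kinesin that pushes spindle poles apart, read 7.96, 8.05 and 8.004 in DHX9-1271, 8.08, 8.03 and 8.04 in DHX9-837 and 7.52, 7.80 and 7.56 in control (log2 fold 0.40, SE 0.064, adjusted p = 0.00495), again without overlap. Hmmr and Nusap1, which encode microtubule-binding proteins of the spindle, rose by 0.55 and 0.44. Dlgap5, a stabiliser of spindle fibres near chromosomes, rose by 0.37 and Kif2c, a kinesin that shortens microtubules at centromeres, by 0.32 (adjusted p from 0.00255 to 0.0166 over the 4). Kif4, a chromosome-bound kinesin, had a log2 fold of 0.28 and was not called (adjusted p = 0.0553).

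All 6 genes of cytokinesis rose with both hairpins, against 8.13% of all genes, and their median log2 fold was 0.48. Of the 6, 4 were called with DHX9-1271 alone and 5 with DHX9-837 alone. Kif23, the kinesin of the central spindle, had the highest fold of the 42 genes, 0.71 with both hairpins (1.64-fold, SE 0.075, adjusted p = 0.000939), and levels of 7.67, 7.80 and 7.64 in DHX9-1271, 7.88, 7.93 and 7.996 in DHX9-837 and 6.98, 7.30 and 7.04 in control. Its partner in the centralspindlin complex, Racgap1, rose by 0.39 (adjusted p = 0.00991). Ect2, the exchange factor that centralspindlin recruits to start the contractile ring, rose by 0.58 (adjusted p = 0.000714). Anln, which encodes the ring scaffold anillin, read 7.55, 7.58 and 7.58 in DHX9-1271, 7.51, 7.63 and 7.73 in DHX9-837 and 6.70, 7.12 and 7.02 in control (log2 fold 0.65, SE 0.089, adjusted p = 0.00256). Kif20a, a kinesin of the central spindle, read 7.40, 7.32 and 7.31 in DHX9-1271, 7.41, 7.32 and 7.46 in DHX9-837 and 6.88, 7.23 and 7.02 in control (log2 fold 0.33, SE 0.074, adjusted p = 0.0214), and the microtubule bundler gene Prc1 rose by 0.37 (adjusted p = 0.0479), close to the threshold. None of these 6 genes had a knockdown array at or below a control array.

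The 3 genes grouped under mitotic exit all rose. Ube2c, the ubiquitin-conjugating enzyme of the anaphase-promoting complex, read 9.22, 9.22 and 9.23 in DHX9-1271, 9.34, 9.31 and 9.36 in DHX9-837 and 8.28, 8.87 and 8.61 in control (log2 fold 0.69, SE 0.11, adjusted p = 0.0043). Its DHX9-1271 arrays were nearly equal, and its control arrays were spread wide below them. Cdc20, the activator of that complex, read 7.99, 8.06 and 8.01 in DHX9-1271, 8.03, 7.94 and 8.06 in DHX9-837 and 7.56, 7.84 and 7.60 in control (log2 fold 0.35, SE 0.065, adjusted p = 0.00933), and none of its knockdown arrays reached the control range. Cdca3 was grouped here although it is an adaptor for destruction of Wee1, an inhibitor of entry into mitosis. It rose by 0.23 (adjusted p = 0.0345).

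Of the chromosome genes Mki67 and Top2a, both widely used as marks of dividing cells, Mki67 rose and Top2a was not called. Mki67, which encodes the Ki-67 coat protein of mitotic chromosomes, read 10.07, 10.09 and 10.15 in DHX9-1271, 10.16, 10.10 and 10.20 in DHX9-837 and 9.35, 9.73 and 9.54 in control (log2 fold 0.59, SE 0.075, adjusted p = 0.00188), and all its knockdown arrays lay above all its control arrays. Top2a, the topoisomerase that untangles sister chromatids, read 8.90, 8.83 and 8.92 in DHX9-1271, 8.86, 8.81 and 8.92 in DHX9-837 and 8.60, 8.97 and 8.79 in control. Control replicate 2 was the highest of all 9 arrays for Top2a, the groups overlapped, and the gene was not called (log2 fold 0.08, SE 0.075, adjusted p = 0.503, 95% interval -0.09 to 0.26). The difference between the fold changes of Mki67 and Top2a was not tested.

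Each hairpin was also set against control on its own, and these comparisons share the 3 control arrays. With DHX9-1271, 21 of the 42 genes rose, 0 fell and 21 were not called, against 2.83% of all genes called upward and 1.58% downward. At least 1.5-fold, 5 rose (0.428% of all genes). The median log2 fold was 0.40, from 0.09 (Top2a) to 0.66 (Ccnb2), and 40 genes had all DHX9-1271 arrays above all control arrays, as 15.4% of all genes did. With DHX9-837, 29 rose, 0 fell and 13 were not called, against 8.67% of all genes upward and 6.91% downward. At least 1.5-fold, 7 rose (1.43% of all genes). Its median was 0.39, from 0.0081 (Cks2) to 0.83 (Kif23), and 37 genes had all DHX9-837 arrays above control, against 17.1% of all genes. The 21 not called with DHX9-1271 were Bub1b, Cdk1, Cenpf, Kif20a, Kif2c, Mad2l1, Plk1 and Ttk and the 13 not called with DHX9-837. Those 13 were Bub1, Cdca3, Cdca8, Cenpa, Cks2, Foxm1, Kif4, Ndc80, Nek2, Nuf2, Prc1, Spc25 and Top2a. The count with DHX9-1271 depended on single arrays. It was 11 without control replicate 1 or without control replicate 3, 8, 5 and 2 without DHX9-1271 replicates 1, 2 and 3, and 13 without DHX9-837 replicate 2, while the count with DHX9-837 was 17 without DHX9-837 replicate 3.

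**Figure D4:**
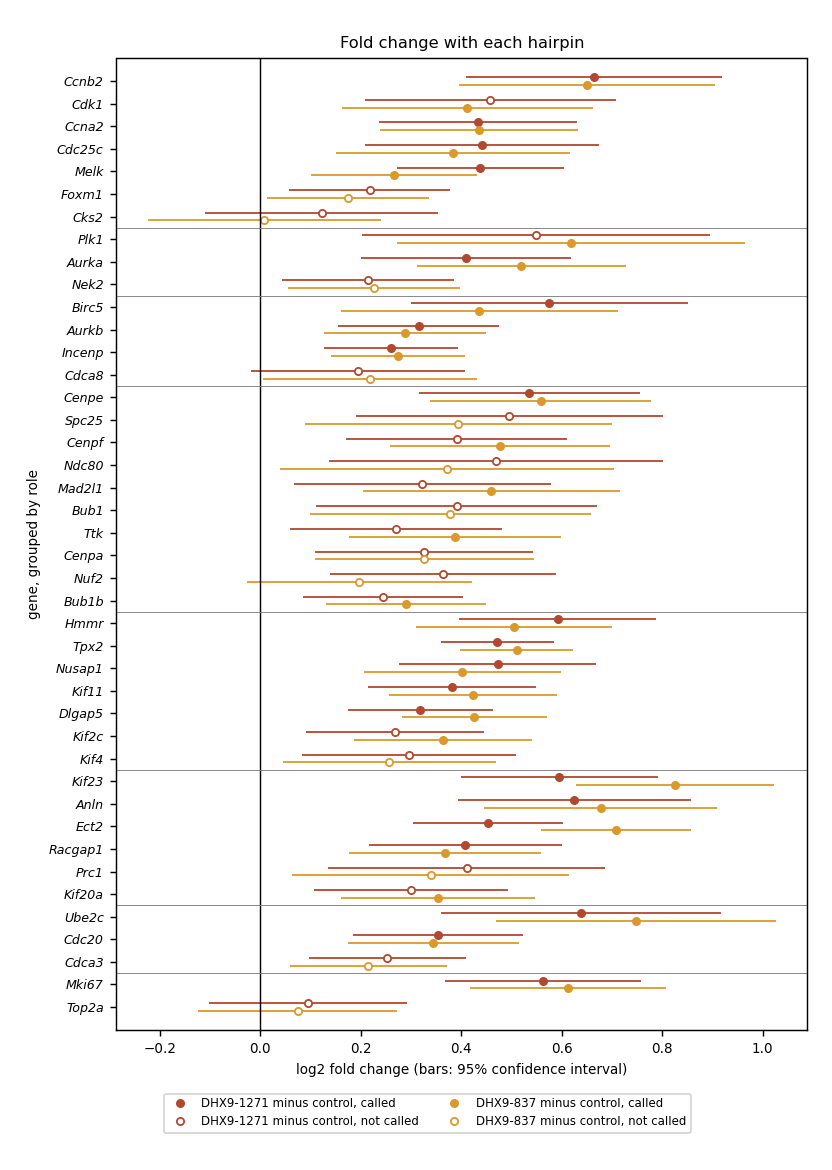
Log2 fold change against control (x axis) of each of the 42 genes (y axis, grouped by role) with DHX9-1271 and with DHX9-837, with 95% confidence intervals. Filled points passed an adjusted p under 0.05. The points of the 2 hairpins lie close together in most rows, and both hairpins share the same control arrays.

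Between the hairpins, 0 of the 42 genes was called by limma in either direction, against 0.696% of all genes called higher and 1.21% called lower in DHX9-837. The median log2 difference, DHX9-837 minus DHX9-1271, was 0.0016, with a range from -0.17 (Melk) to 0.25 (Ect2), and 3 genes had an unadjusted p under 0.05. Over all 42 genes the 95% intervals of the difference reached at most 0.43 in either direction. Ect2 read 9.43, 9.41 and 9.48 in DHX9-837, against 9.18, 9.19 and 9.19 in DHX9-1271, without overlap, and differed by 0.25 (95% interval 0.11 to 0.40, adjusted p = 0.101). The Ect2 difference passed the threshold when those 6 arrays were fitted alone (log2 difference 0.25, adjusted p = 0.0415) and without control replicate 1 (log2 difference 0.25, adjusted p = 0.0378), and its adjusted p over the 18 alternatives ran from 0.0378 to 0.27. Kif23 read 7.88, 7.93 and 7.996 in DHX9-837, against 7.67, 7.80 and 7.64 in DHX9-1271 (log2 fold 0.23, SE 0.087, adjusted p = 0.263). Melk was lower in DHX9-837, with 7.29, 7.28 and 7.30 in DHX9-837, against 7.44, 7.49 and 7.46 in DHX9-1271 (log2 fold -0.17, SE 0.073, adjusted p = 0.323). In all, 5 genes had every DHX9-837 array above every DHX9-1271 array and 2 had every one below, against 9.37% and 12.6% of all genes.

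Further genes of mitosis were read from lists of related genes. With both hairpins, 8.13% of all genes tested were called upward and 5.33% downward. Of 39 other spindle and cytokinesis genes tested, 12 rose and 1 fell with both hairpins (median log2 fold 0.20). Kif20b, a kinesin of late cytokinesis, averaged 7.21 ± 0.085 in DHX9-1271, 7.17 ± 0.11 in DHX9-837 and 6.64 ± 0.14 in control (SD, n = 3 each), a log2 fold of 0.55, SE 0.074. The mitotic kinase gene Pbk rose by 0.40, SE 0.057, and Gtse1, a microtubule-binding protein gene of G2, by 0.51, SE 0.077. The gene that fell was Cdc25a (-0.21, SE 0.052). It encodes a phosphatase that acts at entry into S phase and mitosis, and is not itself a spindle or cytokinesis protein. Of 31 other kinetochore and centromere genes, 6 rose and 0 fell (median 0.16). Sgo1, which protects cohesion at centromeres, averaged 6.33 ± 0.055 in DHX9-1271, 6.46 ± 0.058 in DHX9-837 and 5.90 ± 0.14 in control, a log2 fold of 0.50, SE 0.063, followed by Cenpn (0.24, SE 0.045) and Pmf1 (0.33, SE 0.068). Of 17 condensin and cohesin genes 5 rose and 0 fell (median 0.14), and the condensin subunit genes Ncapd2 (0.29, SE 0.051), Ncaph (0.58, SE 0.11) and Smc4 (0.32, SE 0.061) had the smallest p. DNA replication genes, which act in S phase, had 7 of 32 up and 0 down with a median of 0.10, led by Mcm10 (0.51, SE 0.056), Rfc4 (0.51, SE 0.074) and Gins3 (0.23, SE 0.044). The letters TTTGAA were in the promoters of 19 of 33 other spindle and cytokinesis genes (57.6%) and 10 of 27 other kinetochore genes (37.0%). They were in the promoters of 6 of 13 condensin and cohesin genes (46.2%) and 4 of 27 DNA replication genes (14.8%). The share over all tested genes with a window was 14.9%. Whether these lists differ from the 42 genes in their response was not tested.

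Marker lists of the cells of the gut wall were read in the same comparison, in which 8.13% of all genes tested were called upward and 5.33% downward. Crypt stem and Wnt target genes had 5 of 15 up and 0 down with both hairpins (median log2 fold 0.15), with list means of 7.68 to 7.70 in DHX9-1271, 7.68 to 7.84 in DHX9-837 and 7.55 to 7.58 in control. Absorptive colonocyte genes had 0 of 14 up and 6 down (median -0.13). B and plasma cell genes had 5 of 14 up and 0 down (median 0.43), with list means of 7.28 to 7.75 in DHX9-1271, 7.34 to 7.67 in DHX9-837 and 7.05 to 7.17 in control. Germinal centre B cell genes, marks of the dividing B cells of follicles, had 0 of 7 up and 1 down (median -0.074), with means of 6.38 to 6.51 in DHX9-1271, 6.36 to 6.54 in DHX9-837 and 6.35 to 6.57 in control, which overlapped. T and NK cell genes had 1 of 13 up and 0 down (median -0.084, means of 6.65 to 6.70, 6.39 to 6.75 and 6.61 to 6.71 in the same order of groups). Myeloid genes had 5 of 9 up and 1 down (median 0.35, means of 7.02 to 7.12, 7.15 to 7.20 and 6.87 to 6.92), and endothelial genes 4 of 8 up and 0 down (median 0.20). Fibroblast genes had 6 of 10 up and 0 down (median 0.21), with list means of 8.97, 9.04 and 8.97 in DHX9-1271, 8.98, 8.93 and 9.03 in DHX9-837 and 8.65, 8.84 and 8.76 in control. Smooth muscle genes had 0 of 8 called, and general epithelium 3 of 12 up and 1 down. Among control arrays replicate 1 was the lowest and replicate 2 the highest, as for the mean of the 42 genes, in 4 of the 10 marker lists, which were germinal centre B cells, crypt stem and Wnt targets, fibroblasts and smooth muscle. The part of these other cells in the rise of the G2 and mitosis genes was not tested.

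**Figure D5:**
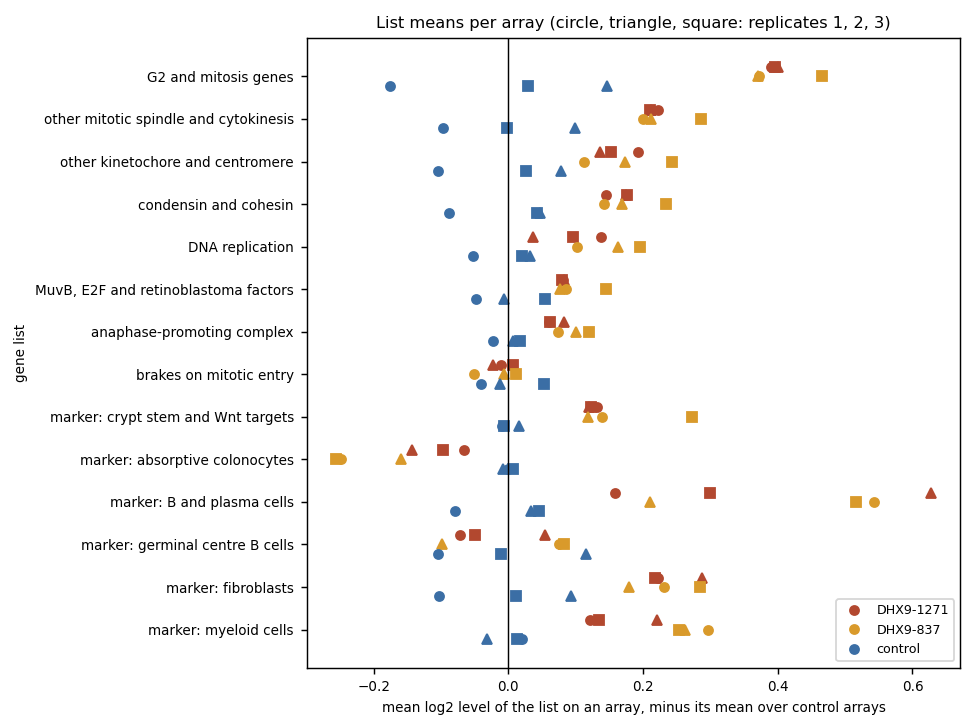
Mean log2 level of selected gene lists on each array, minus the list's mean over the control arrays (x axis), by list (y axis). Points are coloured by hairpin, with replicates 1, 2 and 3 as circle, triangle and square. The marker lists of T and NK cells, general epithelium, endothelium and smooth muscle are not drawn. For the G2 and mitosis genes the 6 knockdown arrays lie together above the 3 spread control arrays.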

How the data were processed

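The deposited values are log2 expression levels of 24973 probe sets on 9 arrays, which the authors made by RMA. The submitters' processing notes name oligo 1.30.0 and R 3.1.1. RMA includes quantile normalization, after which a general shift of transcripts cannot be seen. Its options and the probe set definition were not given in the sources used here, and genes with near-identical copies are uncertain. The platform's table named 24015 probe sets, whose identifiers are Entrez Gene numbers, and left 958 unnamed, and those were not used. Of the 43 listed genes 1 was not analysed here.

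A symbol with several probe sets was represented by the brightest, which gave 24011 symbols, and genes under the 30th percentile of mean log2 level (5.28) were left out, which left 16808. The model was limma 3.58.1 in R 4.3.3 with group means over all 9 arrays, empirical Bayes moderation without trend (6 residual and 2.84 prior degrees of freedom) and the Benjamini-Hochberg adjustment over all 16808. Tests were two-sided and the threshold was an adjusted p of 0.05. For both hairpins, the control mean was subtracted from the average of the 2 knockdown group means. The method was tested on simulated data in which a gene had the same SD in every group, so the wider control spread was not covered. Alternatives covered the level filter, centring, cyclic loess, trend and robust moderation, the arrays compared alone, the mean of probe sets, a block for the replicate number, omission of single arrays and a limit of 1.5-fold.

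The 43 genes, the other lists and the naming rule were chosen with earlier results of these data known, so counts over them are descriptions. Per-array values were printed for genes chosen by role and for those of lowest or highest fold; up to 3 called genes of smallest p per direction were named from each list of the cell cycle, and lists of cell markers were given as counts. Motifs were searched in RefSeq promoter windows (GRCm38.p6), and plots were made in Python 3.11.15 (matplotlib 3.10.9).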

Additional observations from a re-analysis of the deposited data

How the results depend on the processing

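No gene of the 42 reversed, and 0 were called downward, in any comparison under any alternative. Reversal here means a change of sign in a gene called in the main fit or in the alternative. Between the hairpins 0 of the 42 were called in the main fit, so almost no reversal was possible there. The median between the hairpins itself changed sign (-0.027 without DHX9-837 replicate 3). With both hairpins 21 of the 34 calls held under all 17 alternatives other than the 1.5-fold limit, with DHX9-837 16 of 29 and with DHX9-1271 2 of 21 (Tpx2 and Kif23) under all 18 of that kind. Cdc25c fell below the filter at the median gene and was not tested there; with both hairpins it was called under the other alternatives of that kind. Leaving out each array in turn gave 25 to 36 genes up with both hairpins, 17 to 34 with DHX9-837, 2 to 27 with DHX9-1271 and 0 to 1 between the hairpins, and medians of 0.30 to 0.48, 0.29 to 0.45, 0.31 to 0.49 and -0.027 to 0.026. With a limit of 1.5-fold 5, 7 and 5 genes rose with both hairpins, DHX9-837 and DHX9-1271 (0.869%, 1.43% and 0.428% of all genes). With only the arrays compared in the fit, 18 rose with DHX9-837, 8 with DHX9-1271 and 1 (Ect2) between the hairpins. That fit has fewer arrays and also leaves the remaining group out of the pooled spread, and these were not separated. The comparison of both hairpins with control already uses all 9. With no level filter, which adds genes to the adjustment, 12 rose with DHX9-1271. The cause of these and the other changes was not tested. Deviations from the group mean correlated at -0.37 to 0.26 over 9 pairs of arrays of the same replicate number, 2 of them over 0.1. Over 18 pairs of different number the correlations were -0.44 to 0.39, with 7 over 0.1. No pairing by number was seen, but so few arrays cannot exclude it. With the replicate block 33, 27 and 15 genes rose with both hairpins, DHX9-837 and DHX9-1271. With 3 arrays a group, standard errors over the 42 genes ran from 0.043 to 0.13 (log2, both hairpins). The RMA levels come without a test of whether a signal exceeds background.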

Other observations

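Of 22 genes of the MuvB, E2F and retinoblastoma families, which repress or activate cell cycle promoters, 5 rose and 0 fell with both hairpins (median log2 fold 0.098). Among all genes tested, 8.13% were called upward and 5.33% downward. E2f4, the E2F that acts mainly with repressor complexes in resting cells, averaged 9.58 ± 0.0087 in DHX9-1271, 9.67 ± 0.027 in DHX9-837 and 9.27 ± 0.048 in control (SD, n = 3 each; log2 fold 0.36, SE 0.038, adjusted p = 0.000939), and E2f2 (0.23, SE 0.048) and the late-acting repressor gene E2f8 (0.29, SE 0.061) also rose. Of 16 genes of the anaphase-promoting complex 3 rose and 0 fell (median 0.077), and these were the subunit genes Cdc27 (0.26, SE 0.049), Cdc26 (0.27, SE 0.053) and Cdc23 (0.19, SE 0.052).

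Of 16 genes that act as brakes on the cell cycle, 2 rose and 1 fell (median -0.056). The checkpoint kinase gene Chek1 (0.34, SE 0.066) and Cdkn1a, which encodes the inhibitor p21 (0.23, SE 0.06, adjusted p = 0.0394), rose. Cdkn2b, which encodes the G1 inhibitor p15, fell and averaged 8.10 ± 0.041 in DHX9-1271, 7.96 ± 0.18 in DHX9-837 and 8.46 ± 0.06 in control (log2 fold -0.43, SE 0.072, adjusted p = 0.00617). Over all genes tested, 8.13% were called upward and 5.33% downward in this comparison.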
